A study of Mus musculus with 8 samples.

Results

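The genes described here are 88 rows of a table of 23366 mouse genes, taken by symbol as the nuclear-encoded genes of the mitochondrial respiratory chain and the ATP synthase. A row was included when its symbol began with Ndufa, Ndufb, Ndufc, Ndufs, Ndufv, Uqcr, Atp5 or Cox4 to Cox8. No symbol marked as a pseudogene was among them. By complex they were 45 genes of complex I, 8 of complex III, 18 of complex IV and 17 of the ATP synthase. Every count by complex follows the symbol, so Ndufa4 is counted with complex I and Atp5sl with the ATP synthase. Among the complex I rows, 7 were assembly factors (Ndufaf genes), which help to build the enzyme and are not part of it. RNA was sequenced from macrophages grown from the bone marrow of C57BL/6 mice, either wild type or carrying Lsd1SA/SA, a knock-in form of LSD1 (a histone demethylase) that the labels call defective in phosphorylation. Cells of all groups were at passage 1 and were kept without serum for 24 h. They were left untreated or given lipopolysaccharide (LPS, from the outer membrane of Gram-negative bacteria) for 2 h, at a label dose of 1 mg/ml. This made 4 groups of 2 libraries each: untreated wild type, wild type with LPS, untreated knock-in and knock-in with LPS.

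The respiratory chain sits in the inner mitochondrial membrane. Complex I takes electrons from NADH, complex III passes them from coenzyme Q to cytochrome c, and complex IV hands them to oxygen, while each of these enzymes pumps protons that the ATP synthase lets back through to make ATP. Macrophages that meet LPS are known to shift towards glycolysis and to repurpose their mitochondria, with complex I and complex II drawing interest as sources of reactive oxygen species. Most subunits are encoded in the nucleus, a few core subunits in mitochondrial DNA; the latter were not analysed here.

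Nuclear genes of this kind are textbook targets of the factors NRF1, GABP and YY1, so the promoters of the members were searched for a core sequence of each on both strands, to show what the shared upstream sequence looks like. The windows ran from 250 bases before to 50 bases after each gene start, from RefSeq with the build GRCm38.p6, and 79 windows were found for 73 of the 88 members. The NRF1 letters (GCGCA, then any base, then GCGC) were in 18 windows of members (22.8%), against 10.1% of the windows of genes tested and 4.6% of all windows in the table. The YY1 letters AAGATGGC were in 12 windows of members (15.2%), against 4.63% of the windows of genes tested and 2.75% of all. In 9 of these 12 the YY1 match lay in the last 50 bases. The GABP letters CCGGAAGT were in 5 windows of members (6.33%), against 8.17% of the windows of genes tested and 3.89% of all. No window held overlapping matches of different motifs. By complex, the NRF1 letters were in 10 of 41 windows of complex I, 1 of 5 of complex III, 1 of 13 of complex IV and 6 of 20 of the ATP synthase. A match describes the letters only. Below are the 250 bases upstream of 4 members that the results name, chosen because they hold NRF1 or GABP letters. They are Atp5h (chr11:115419920-115420169, minus strand, NRF1 and GABP), Cox6a1 (chr5:115348959-115349208, minus strand, 2 NRF1 matches), Ndufaf4 (chr4:24897833-24898082, plus strand, NRF1) and Uqcrh (chr4:116075071-116075320, minus strand, GABP). They are written 5′ to 3′ on the gene's strand, and capitals mark the matched letters on either strand.
Atp5h: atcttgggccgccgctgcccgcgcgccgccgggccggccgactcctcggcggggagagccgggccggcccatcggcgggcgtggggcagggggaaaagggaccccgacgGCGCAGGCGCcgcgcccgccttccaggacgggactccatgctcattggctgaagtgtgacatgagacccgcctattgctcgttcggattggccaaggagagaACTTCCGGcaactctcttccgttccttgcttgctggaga
Cox6a1: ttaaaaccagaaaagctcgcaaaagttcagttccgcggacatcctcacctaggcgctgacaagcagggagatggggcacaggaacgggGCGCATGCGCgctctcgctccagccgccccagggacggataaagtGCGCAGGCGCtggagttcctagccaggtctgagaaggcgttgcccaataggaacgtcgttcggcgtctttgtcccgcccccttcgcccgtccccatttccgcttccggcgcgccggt
Ndufaf4: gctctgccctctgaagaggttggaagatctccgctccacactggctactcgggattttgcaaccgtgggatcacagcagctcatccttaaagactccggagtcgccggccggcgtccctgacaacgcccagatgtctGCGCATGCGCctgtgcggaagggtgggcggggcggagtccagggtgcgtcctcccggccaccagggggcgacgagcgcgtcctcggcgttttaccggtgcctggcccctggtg
Uqcrh: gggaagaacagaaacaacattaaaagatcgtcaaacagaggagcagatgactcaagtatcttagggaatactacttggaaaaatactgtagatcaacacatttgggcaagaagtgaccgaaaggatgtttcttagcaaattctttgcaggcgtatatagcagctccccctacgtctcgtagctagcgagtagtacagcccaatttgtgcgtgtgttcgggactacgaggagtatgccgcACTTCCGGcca

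Kdm1a, the gene for LSD1, read 33.9 and 31.1 in untreated wild type, 47.3 and 45.8 in wild type with LPS, 33.7 and 32.6 in untreated knock-in and 39.3 and 40.4 in the libraries labelled knock-in with LPS. It was present in every library, and a transcript level cannot check the substitution. All values here are normalised read counts, a CPM scaled by library factors. Libraries held 40379258 to 55595160 reads. Tnf, an early LPS target, read 4039 and 3915 in wild type with LPS and 48.7 and 48.5 in the libraries labelled knock-in with LPS, against 26.4 to 27.4 in the untreated libraries. Il1b, another LPS target, read 2086 and 2318 in wild type with LPS and 1.77 and 1.18 in the libraries labelled knock-in with LPS, where the untreated libraries read 1.26 to 1.68. The libraries labelled knock-in with LPS were thus far below wild type with LPS in both targets, and for Il1b near the untreated level. Whether they were exposed to LPS as labelled was not tested, which bears on every comparison that uses them. Xist, expressed from the inactive X chromosome of females, was 315 to 437 in 6 libraries and 0.212 to 0.366 in both libraries labelled knock-in with LPS, where Ddx3y, Eif2s3y, Kdm5d and Uty, all on the Y chromosome, were present at 8.80 to 35.0. In the other 6 libraries these Y-linked genes were at 0, apart from 0.0503 for Ddx3y in 1 library. The libraries labelled knock-in with LPS therefore read as male and the others as female, so that sex, the low level of both LPS targets and the knock-in LPS label cannot be told apart in any comparison that uses them. Summed markers of stromal cells were 83.4 to 84.7 in these 2 libraries against 24.7 to 31.3 in the other 6, with all 11 genes of that list detected. Markers of mast cells summed to 82.6 to 85.5 in them, 63.1 to 64.3 in wild type with LPS and 34.1 to 34.8 without LPS, with Mcpt4 at 0 in every library. The proliferation gene Mki67 read 10.7 and 10.6 in them, 294 and 263 in wild type with LPS and 45.9 to 61.8 without LPS. Summed macrophage markers were 11900 to 12535 in them, 16745 to 17084 in wild type with LPS and 13207 to 13932 without LPS. Dendritic cell markers summed to 20.4 to 22.2 in them, 89.3 to 90.8 in wild type with LPS and 57.7 to 62.9 without LPS. Neutrophil markers summed to 512 to 522 in them, 780 to 799 in wild type with LPS and 372 to 385 without LPS. Erythroid and megakaryocyte markers summed to 160 to 169 in them, 229.7 to 245 in wild type with LPS and 179.7 to 195 without LPS. B and T cell markers summed to 6.33 to 7.14 in them and 9.57 to 12.0 in the other libraries. The part of these markers in the results was not tested, and in bulk RNA a change in the mix of cells and a change in RNA per cell cannot be told apart.

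Of the 88 members, 82 passed the filter on low values (at least 1 in 2 or more libraries) and were tested. The 6 that did not were isoforms known from other tissues or conditions. Cox7b2, Cox8b and Cox8c had no read in any library. Cox4i2, the lung and hypoxia form of subunit 4, reached 0.135, Cox6b2, a testis form, reached 0.367, and Ndufa4l2, a hypoxia-induced relative of Ndufa4, reached 0.247. Both other restricted isoforms, Cox6a2 and Cox7a1 of heart and skeletal muscle, were tested. Cox7a1 lay at 0.926 to 1.46 and Cox6a2 at 4.32 to 7.08, while 5 muscle markers summed to at most 0.794 in any library, with Myh2 at 0 in all.

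Summed over its genes, complex I read 1479 ± 21.4 in untreated wild type, 1513 ± 42.3 in wild type with LPS, 1586 ± 58.2 in untreated knock-in and 1702 ± 47.0 in the libraries labelled knock-in with LPS (mean ± SD, n = 2). The 2 libraries labelled knock-in with LPS were above all 6 others. Complex III read 477 ± 1.61, 534 ± 16.3, 506 ± 21.6 and 509.8 ± 10.2 in the same order (mean ± SD, n = 2). Complex IV read 1172 ± 12.9, 1308 ± 34.8, 1258 ± 45.2 and 1296 ± 34.7 (mean ± SD, n = 2). The ATP synthase read 1934 ± 1.96, 2169 ± 69.5, 2055 ± 48.4 and 2065 ± 21.5 (mean ± SD, n = 2). In complexes III, IV and the ATP synthase, both wild-type LPS libraries were above both untreated wild-type libraries, each by 1.12-fold, on the deposited scale. As a plain share of all reads the order was the other way. Complex III took 0.0511% and 0.0509% of the reads in untreated wild type and 0.0459% and 0.0473% with LPS. Complex IV took 0.126% and 0.124% and then 0.113% and 0.115%, and the ATP synthase 0.207% in both and then 0.186% and 0.192%. The sums were not tested, and long or abundant transcripts weigh most in them.

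**Figure D1:**
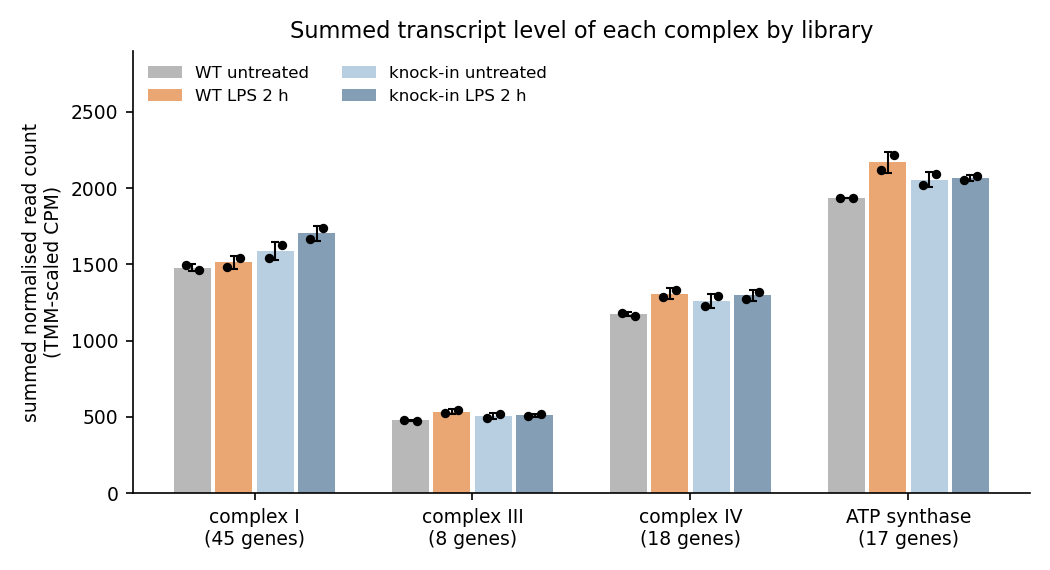
Summed normalised read count (TMM-scaled CPM, y axis from 0) of the members of each complex in the 4 groups; bars are group means, whiskers the SD over 2 libraries and points the libraries. On this scale the group means of complexes III, IV and the ATP synthase are highest in wild type with LPS. For complex IV the wild-type LPS libraries overlap those of both knock-in groups. Complex I is highest in the libraries labelled knock-in with LPS, which also read as male. As a plain share of reads, all 4 complexes are lowest in wild type with LPS.

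In wild-type cells, LPS moved respiratory chain genes by small steps, mostly upward on the deposited scale and mostly in complexes III and IV and the ATP synthase. On that scale 25 of 82 members rose and 3 fell (limma with Benjamini-Hochberg adjustment), against 57.6% of all genes tested called in either direction, 26.8% higher and 30.7% lower. The share of members that rose is thus near the background, and the share that fell is below it. The median log2 change of the members was 0.071, against -0.032 for all genes. All 82 members stayed below a log2 change of 1 in either direction, a size that 10.4% of all genes reached. By complex, 7 members of complex I rose and 2 fell, 4 of 8 in complex III rose, 8 of 13 in complex IV rose, and 6 of 17 in the ATP synthase rose and 1 fell. The rises in complex I went from 7 to 0 without untreated wild-type replicate 2, to 2 and 3 without wild-type LPS replicates 2 and 1, and to 4 without untreated knock-in replicate 2. Its falls went from 2 to 0 without wild-type LPS replicate 2 and to 1 without untreated wild-type replicate 2. The rises in complex III went to 2 without wild-type LPS replicate 2, and those in complex IV to 2 and 5 without wild-type LPS replicates 2 and 1. The direction depends on how libraries are scaled: with plain CPM, 0 members were called higher and 58 lower, and with quantile normalization 6 higher and 22 lower. Leaving out wild-type LPS replicate 2 left 10 higher and 1 lower, and leaving out untreated wild-type replicate 2 left 13 higher.

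**Figure D2:**
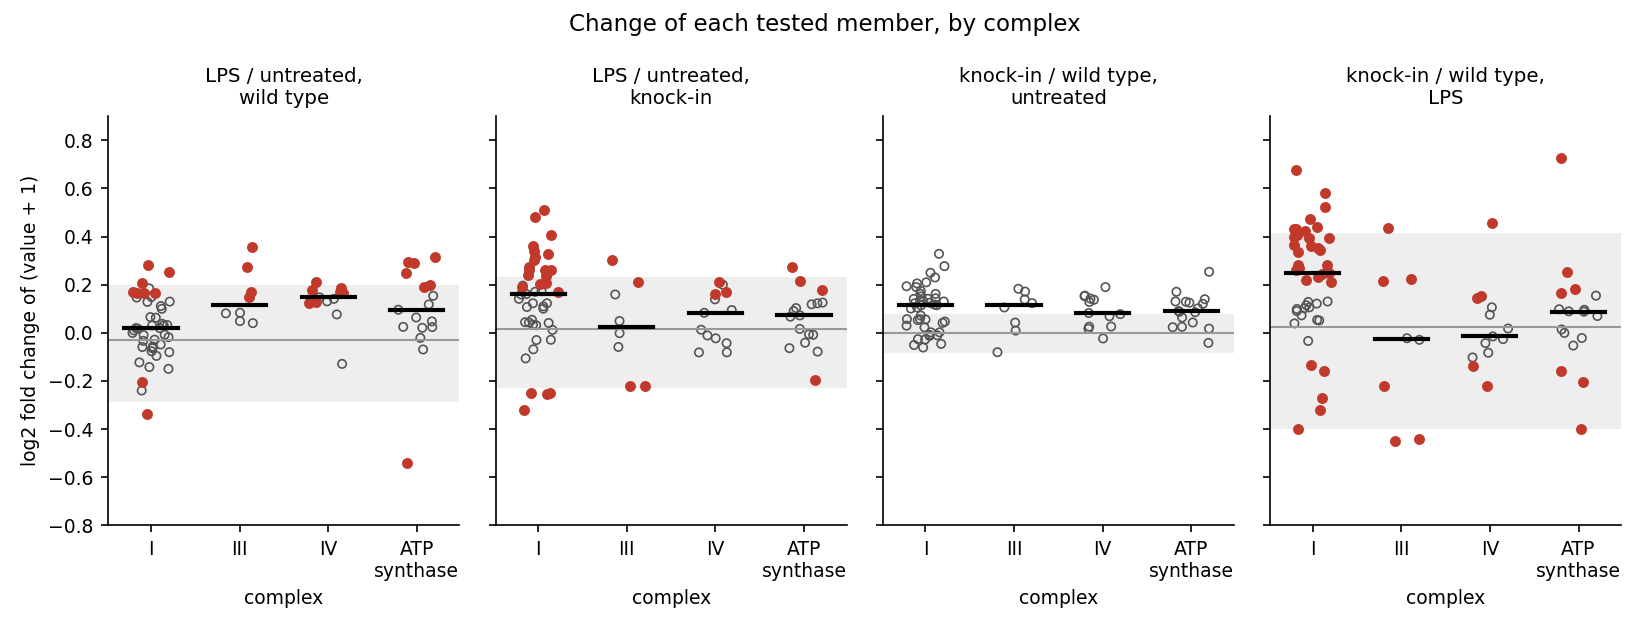
Log2 fold change of (value + 1) of each tested member, by complex (I, III, IV, ATP synthase), in 4 comparisons; filled points passed limma's test, open points did not, black bars are medians, the grey line is the median of all genes and the grey band their middle 50%. The members lie between -0.54 and 0.73 in these panels, and with plain CPM the points of the first panel would sit lower and those of the last panel higher.

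The rises in wild type with LPS that passed the test whichever library was left out included members of complex III, complex IV and the ATP synthase. Uqcrfs1, the Rieske iron-sulfur protein that takes electrons from coenzyme Q, read 56.5 and 48.9 in untreated wild type, 67.4 and 67.8 in wild type with LPS, 55.6 and 60.5 in untreated knock-in and 48.5 and 50.7 in the libraries labelled knock-in with LPS. The wild-type LPS libraries were above all 6 others. Its rise in wild type was log2 change 0.36, SE 0.065, limma adjusted p = 5.18e-05. Uqcrh, the hinge protein that holds cytochrome c1, read 63.5 and 66.2 in untreated wild type, 76.4 and 80.6 in wild type with LPS, 62.7 and 71.2 in untreated knock-in and 54.5 and 60.1 in the libraries labelled knock-in with LPS, and wild type with LPS was again above every other library (log2 change 0.27, SE 0.064, limma adjusted p = 8.11e-04). Atp5a1, the alpha subunit of the F1 head, read 349 and 353 in untreated wild type, 422 and 439.9 in wild type with LPS, 374 and 375 in untreated knock-in and 328 and 324 in the libraries labelled knock-in with LPS. The wild-type LPS libraries were highest and the libraries labelled knock-in with LPS lowest, with no overlap between the 4 groups in that gene. Its rise in wild type was log2 change 0.29, SE 0.044, limma adjusted p = 3.43e-06. Atp5b, the catalytic beta subunit, read 451 and 436 without and 519.9 and 535 with LPS in wild type (log2 change 0.25, SE 0.044, limma adjusted p = 3.00e-05). Atp5g3, 1 of 3 genes for the same c subunit of the membrane ring, read 87.6 and 79.9 and then 101 and 104 (log2 change 0.29, SE 0.057, limma adjusted p = 1.19e-04). Cox4i1, the ubiquitous form of complex IV subunit 4, read 213 and 195 and then 231 and 241 (log2 change 0.21, SE 0.053, limma adjusted p = 0.00170). These 6 rises passed the test whichever library was left out. With plain CPM, Uqcrh, Atp5a1, Atp5b, Atp5g3 and Cox4i1 had log2 changes from -0.085 to -0.00092, below 0. Uqcrfs1 kept a positive sign there but lost its call, as 0 members were called higher with plain CPM. With quantile normalization Atp5a1, Atp5b and Cox4i1 were lower still, at -0.12, -0.18 and -0.25.

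Other rises in wild type were found for Atp5e (0.31), Ndufa2 (0.28), Ndufb3 (0.25), Ndufb6 (0.21), Cox8a (0.19), Cox6a1 (0.18), Uqcrq (0.17), Cox5a (0.17), the core protein Uqcrc1 (0.15) and Cox7a2l (0.12), which links complexes III and IV in supercomplexes. The largest limma adjusted p among them was 0.0498, for Ndufb6. Each of these 10 calls was lost when 1 library was left out. Without wild-type LPS replicate 2, the adjusted p was 0.186 for Ndufa2, 0.141 for Atp5e, 0.131 for Uqcrq, 0.107 for Cox5a, 0.0839 for Cox6a1, 0.157 for Uqcrc1 and 0.182 for Cox7a2l in limma. Without untreated wild-type replicate 2 it was 0.0679 for Ndufb3 and 0.405 for Ndufb6, and without wild-type LPS replicate 1 it was 0.0529 for Cox8a in limma. With plain CPM all of these but Atp5e had a log2 change below 0. Ndufs1 and Ndufv1, core subunits that carry electrons in the matrix arm of complex I, did not pass the test (log2 changes 0.10 and -0.0079).

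The 3 members that fell in wild type were not core enzyme subunits. Atp5sl, whose symbol places it with the ATP synthase and which is now listed as a complex I assembly factor, read 21.1 and 21.4 in untreated wild type, 15.2 and 13.5 in wild type with LPS, 20.7 and 23.9 in untreated knock-in and 24.3 and 24.2 in the libraries labelled knock-in with LPS. The wild-type LPS libraries were below all 6 others (log2 change -0.54, SE 0.083, limma adjusted p = 5.10e-06). Ndufaf4, an assembly factor that acts early in the building of complex I, read 8.13 and 7.54 and then 6.78 and 5.29 (log2 change -0.34, SE 0.11, limma adjusted p = 0.0144). Ndufv3, an accessory subunit of the NADH-binding module, read 42.2 and 43.7 and then 38.0 and 36.3 (log2 change -0.20, SE 0.064, limma adjusted p = 0.00891). The call of Atp5sl held whichever library was left out. Without wild-type LPS replicate 2, the limma adjusted p was 0.246 for Ndufaf4 and 0.0764 for Ndufv3.

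The scale bears directly on these wild-type values. As a plain share of all reads, the 88 members together took 0.544% and 0.539% of the reads in untreated wild type and 0.475% and 0.488% in wild type with LPS, so that the LPS libraries were lower. In untreated knock-in the share was 0.559% and 0.579%, and in the libraries labelled knock-in with LPS 0.559% and 0.576%. The deposited scaling factors were 1.07 and 1.07 in untreated wild type and 0.878 and 0.866 in wild type with LPS, and they turn the lower share into a higher value. Plain CPM moved the median log2 change of all genes in wild type from -0.032 to -0.30. Relative to all genes the members' median stayed above under every scaling, by 0.10 on the deposited scale, 0.078 with plain CPM, 0.11 with median-of-ratios scaling and 0.035 with quantile normalization. In the untreated comparison of genotypes and in the knock-in LPS comparison, the members' median was positive under all 4 scalings.

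**Figure D3:**
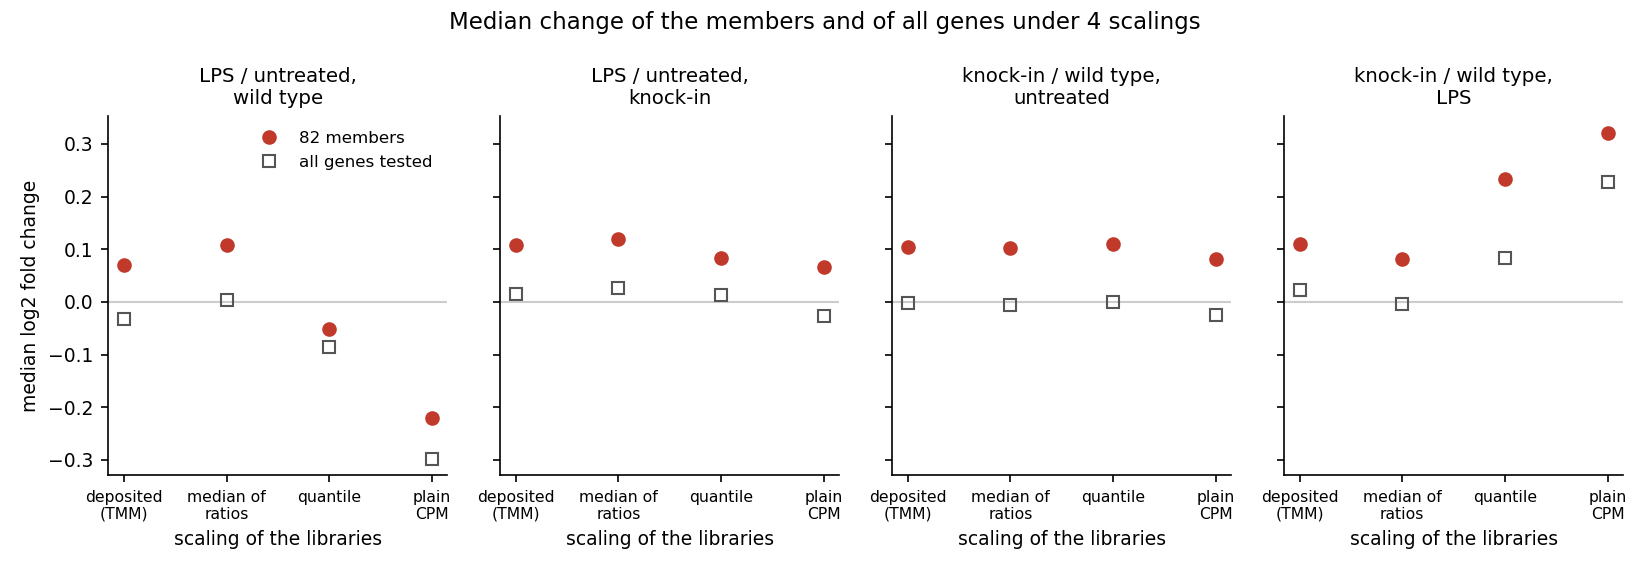
Median log2 fold change of the 82 tested members (circles) and of all genes tested (squares) under 4 ways of scaling the libraries (x axis), in 4 comparisons. In wild type the members' median falls from 0.071 on the deposited scale to -0.22 with plain CPM, while it stays above that of all genes in every panel.

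In knock-in cells the calls sat mainly in complex I. Set against untreated knock-in, the libraries labelled knock-in with LPS had 26 of 82 members higher and 7 lower, with 56.7% of all genes called in either direction, 28.5% higher and 28.3% lower. The share of members that rose was near the background and the share that fell below it. The members' median log2 change was 0.11, against 0.016 for all genes. In complex I, 18 of 44 rose and 4 fell, among them 13 of 30 accessory subunits, 3 of 7 assembly factors and 2 of 7 core subunits that rose. In complex III 2 rose and 2 fell, in complex IV 3 of 13 rose, and in the ATP synthase 3 of 17 rose and 1 fell. Without untreated knock-in replicate 1 the number that rose was 15, and without knock-in LPS replicate 2 it was also 15. Without either of these, 7 accessory subunits and 1 member of the ATP synthase rose. The rises in complex III were 0 without untreated knock-in replicate 1 and 1 without knock-in LPS replicate 2, and its falls 0 without untreated knock-in replicate 2 or knock-in LPS replicate 1. In complex IV 1 rose without knock-in LPS replicate 2.

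Assembly factors and a core subunit rose furthest in the knock-in LPS libraries. Ndufaf5, which modifies the core subunit Ndufs7 during assembly, read 6.26 and 4.95 in untreated wild type, 5.08 and 5.00 in wild type with LPS, 4.85 and 5.89 in untreated knock-in and 8.62 and 7.48 in the libraries labelled knock-in with LPS. The libraries labelled knock-in with LPS were above all 6 others (log2 change 0.51, SE 0.12, limma adjusted p = 0.00111). Ndufaf6, another assembly factor, read 3.19 and 3.71 and then 5.42 and 4.99 (log2 change 0.48, SE 0.12, limma adjusted p = 0.00220). Ndufs7, a core subunit with the last iron-sulfur cluster before coenzyme Q, read 31.4 and 32.0 in untreated wild type, 30.4 and 33.6 in wild type with LPS, 33.5 and 35.9 in untreated knock-in and 43.8 and 49.0 in the libraries labelled knock-in with LPS, again highest in the libraries labelled knock-in with LPS (log2 change 0.41, SE 0.071, limma adjusted p = 3.57e-05). Atp5h, the d subunit of the peripheral stalk whose promoter is printed above, read 84.8 and 88.5 and then 104 and 106 (log2 change 0.27, SE 0.061, limma adjusted p = 5.24e-04). Cox5b, a zinc-binding subunit of complex IV, read 89.0 and 91.5 and then 102 and 107 (log2 change 0.21, SE 0.052, limma adjusted p = 0.00131). These 5 calls held whichever library was left out.

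The falls in the libraries labelled knock-in with LPS included core electron carriers. Ndufs1, the largest iron-sulfur subunit of complex I, read 45.1 and 46.2 in untreated wild type, 48.0 and 49.9 in wild type with LPS, 47.4 and 45.3 in untreated knock-in and 36.2 and 37.6 in the libraries labelled knock-in with LPS, and the libraries labelled knock-in with LPS were below all 6 others (log2 change -0.32, SE 0.060, limma adjusted p = 8.91e-05). Ndufs8, which carries a further pair of iron-sulfur clusters towards coenzyme Q, read 28.9 and 28.1 and then 23.5 and 23.9 (log2 change -0.26, SE 0.069, limma adjusted p = 0.00322). Ndufa4, first assigned to complex I and now known as a subunit of complex IV, read 58.0 and 54.0 in untreated wild type, 57.0 and 65.9 in wild type with LPS, 58.3 and 58.3 in untreated knock-in and 49.1 and 48.6 in the libraries labelled knock-in with LPS, with the libraries labelled knock-in with LPS lowest (log2 change -0.25, SE 0.065, limma adjusted p = 0.00215). Ndufb11, an X-linked membrane-arm subunit, read 48.6 and 53.2 and then 43.8 and 41.3 (log2 change -0.25, SE 0.062, limma adjusted p = 0.00147). Of the other X-linked members, Ndufa1 (log2 change 0.041) and Cox7b (-0.023) did not pass the test. Atp5a1 fell from 374 and 375 to 328 and 324 (log2 change -0.20, SE 0.044, limma adjusted p = 5.43e-04). These 5 falls held whichever library was left out. Uqcrfs1 (-0.22) and Uqcrh (-0.22) also fell, but without untreated knock-in replicate 2 their limma adjusted p was 0.1004 and 0.161, and without knock-in LPS replicate 1 it was 0.0695 and 0.124.

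Further rises in this comparison were Uqcr10 (0.30), Uqcrq (0.21), Cox5a (0.17), Cox6b1 (0.16), Atp5e (0.21) and Atp5d (0.18). Each was lost without a single library in limma. Without untreated knock-in replicate 1, the adjusted p was 0.0564 for Uqcr10, 0.0974 for Uqcrq, 0.172 for Cox6b1 and 0.142 for Atp5d in limma. Without knock-in LPS replicate 2, it was 0.0504 for Cox5a and 0.222 for Atp5e. Ndufv1, Uqcrc1, Cox4i1, Cox7a2l and Atp5b did not pass the test (log2 changes 0.12, -0.0014, -0.081, 0.013 and -0.041).

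Read gene by gene, the LPS calls of the genotypes overlapped in part. Of 82 members, 9 rose in both, 3 rose in wild type and fell in knock-in, 13 rose and 3 fell in wild type with no call in knock-in, and 17 rose and 4 fell in knock-in with no call in wild type. The other 33 had no call in either. Over all genes tested, 9.85% rose in both, against 10.98% of members. A further 7.09% of all genes rose in wild type and fell in knock-in, and 8.62% the reverse, against 3.66% and 0 of the members. Rises called in wild type alone made up 9.90% of all genes and 15.9% of members, and those called in knock-in alone 10.0% and 20.7%. Genes with no call in either were 18.97% of all genes and 40.2% of members. These shares were not tested against each other. The 3 opposite members were Uqcrfs1, Uqcrh and Atp5a1. The difference between the LPS responses was tested as an interaction, knock-in minus wild type. It was positive for 17 members and negative for 13, with 63.7% of all genes called in either direction and 31.8% in each. The members' median interaction was 0.037, against 0.013 for all genes. With plain CPM 46 were positive and 3 negative, and with quantile normalization 26 and 5. Without untreated knock-in replicate 1 the positive number was 10 and without knock-in LPS replicate 2 it was 9, and in the first of these the median was -0.018.

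**Figure D4:**
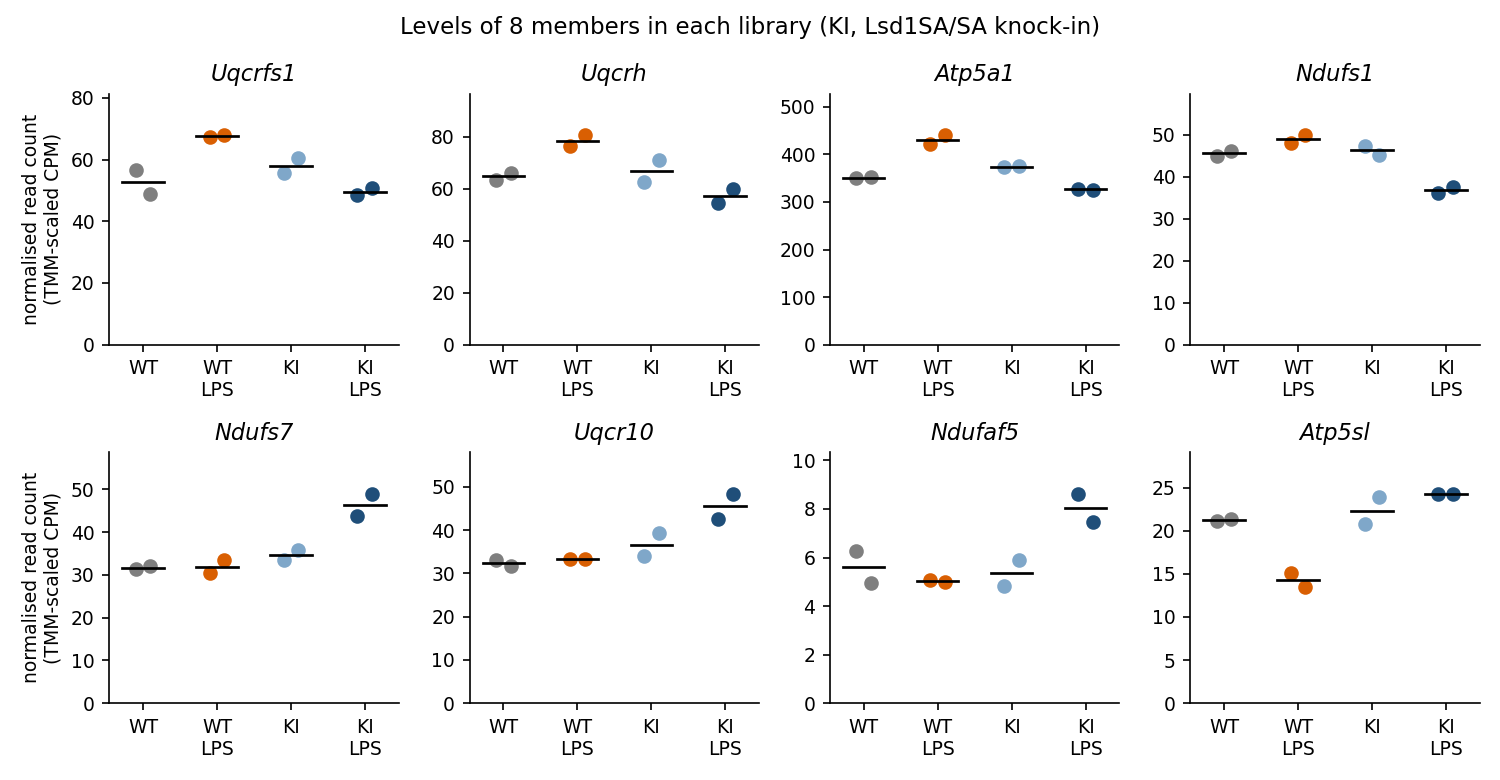
Normalised read count (TMM-scaled CPM, y axes from 0) of 8 members in each of the 8 libraries, with bars at group means; WT is wild type and KI the Lsd1SA/SA knock-in. By group mean, Uqcrfs1, Uqcrh, Atp5a1 and Ndufs1 are lowest in the libraries labelled knock-in with LPS, Ndufs7, Uqcr10 and Ndufaf5 highest there, and Atp5sl is lowest in wild type with LPS.

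The largest negative interactions were those of Uqcrfs1 (log2 change -0.58, SE 0.093, limma adjusted p = 8.53e-06), Atp5a1 (log2 change -0.49, SE 0.062, limma adjusted p = 2.88e-07), Uqcrh (log2 change -0.49, SE 0.091, limma adjusted p = 5.28e-05) and Ndufs1 (log2 change -0.42, SE 0.086, limma adjusted p = 1.62e-04). For Uqcrfs1 and Uqcrh the call held under every alternative run. For Atp5a1 it was lost with quantile normalization and for Ndufs1 with plain CPM, where the adjusted p was 0.207 and 0.0706 in limma. The largest positive ones were those of the assembly factors Ndufaf6 (log2 change 0.72, SE 0.18, limma adjusted p = 0.00108) and Ndufaf5 (log2 change 0.63, SE 0.17, limma adjusted p = 0.00283) and of Atp5sl (log2 change 0.66, SE 0.12, limma adjusted p = 3.54e-05). These 3 calls held under every alternative run, except that Ndufaf6 did not pass the stricter filter on low values and was not tested there.

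Set side by side with LPS, the libraries labelled knock-in with LPS had more complex I transcript than wild type and less of several subunits of the other enzymes. On the deposited scale 36 of 82 members were higher and 13 lower, with 75.4% of all genes called in either direction, 38.5% higher and 36.8% lower. The members' share called higher was near the background and the share called lower below it. The members' median log2 difference was 0.11, against 0.023 for all genes. In complex I 26 of 44 were higher and 5 lower, including 18 of 30 accessory subunits and 5 of 7 assembly factors that were higher. Complex III had 3 higher and 3 lower, complex IV 3 and 2, and the ATP synthase 4 and 3. The lower members of complex I numbered 3 without knock-in LPS replicate 1 or wild-type LPS replicate 1. In complex IV 1 was higher without knock-in LPS replicate 2 or wild-type LPS replicate 1, and 1 lower without knock-in LPS replicate 1 or wild-type LPS replicate 2. In the ATP synthase 2 were higher without knock-in LPS replicate 2. With plain CPM 66 members were higher and 4 lower, and with quantile normalization 55 and 6. The medians of complexes III and IV were -0.026 and -0.015 on the deposited scale and 0.20 and 0.19 with plain CPM. Without wild-type LPS replicate 2 they were 0.014 and 0.059, and without knock-in LPS replicate 1 the median of complex IV was 0.081.

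Within complex I, the members that were higher with the knock-in LPS label were led by Ndufaf6 (log2 change 0.68, SE 0.12, limma adjusted p = 3.66e-05), Ndufaf5 (log2 change 0.58, SE 0.12, limma adjusted p = 1.66e-04) and Ndufs7 (log2 change 0.52, SE 0.071, limma adjusted p = 5.42e-07). Ndufv1, which binds NADH, was higher by 0.25, a call lost without knock-in LPS replicate 2 (limma adjusted p = 0.0673). Ndufs1 was lower (log2 change -0.40, SE 0.060, limma adjusted p = 2.67e-06), as were Ndufb11 (-0.27) and Ndufa4 (-0.32), the latter placed here by symbol only. The 7 core subunits were thus split, 3 higher and 3 lower, with 1 lower without knock-in LPS replicate 1 or wild-type LPS replicate 1. Among these, the calls of Ndufa4 and Ndufb11 were lost with plain CPM (limma adjusted p = 0.154 and 0.456).

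Complex III was split in the same way. Uqcr10, a small membrane subunit, read 33.0 and 31.7 in untreated wild type, 33.3 and 33.4 in wild type with LPS, 34.1 and 39.3 in untreated knock-in and 42.6 and 48.4 in the libraries labelled knock-in with LPS. The libraries labelled knock-in with LPS were above all 6 others (log2 change 0.43, SE 0.074, limma adjusted p = 1.22e-05). Uqcrq was higher by 0.23 and Uqcr11 by 0.22, the latter lost without knock-in LPS replicate 2 or wild-type LPS replicate 1 (limma adjusted p = 0.126 and 0.0671). Uqcrh (log2 change -0.45, SE 0.064, limma adjusted p = 1.08e-06), Uqcrfs1 (log2 change -0.44, SE 0.065, limma adjusted p = 1.95e-06) and Uqcrb (-0.22) were lower, and the call of Uqcrb was lost with plain CPM and with quantile normalization. The core protein Uqcrc1 did not pass the test (-0.029).

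In complex IV the muscle isoform Cox6a2 was higher (log2 change 0.46, SE 0.12, limma adjusted p = 0.00153), at 4.32 and 5.29 in wild type with LPS and 7.08 and 6.81 in the libraries labelled knock-in with LPS. Cox5b (0.15) and Cox5a (0.14) were higher by less, and both calls were lost without wild-type LPS replicate 1 or knock-in LPS replicate 2; for Cox5a the limma adjusted p was then 0.173 and 0.0749, and for Cox5b 0.05005 and 0.108. Cox6c was lower (-0.22), as was Cox4i1 (-0.14), whose sign turned with plain CPM (0.086) and quantile normalization (0.23). The call of Cox4i1 was lost without knock-in LPS replicate 1 (limma adjusted p = 0.287) and without wild-type LPS replicate 2 (0.164), and that of Cox6c with plain CPM and quantile normalization. Cox7a2l did not pass the test (-0.083).

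Among members with an ATP synthase symbol, the widest difference was that of Atp5sl (log2 change 0.73, SE 0.083, limma adjusted p = 3.64e-08). Atp5sl is now listed as a complex I assembly factor. Atp5h (0.25) and Atp5d, the delta subunit of the F1 rotor (0.18), were also higher, and Atp5d lost its call without knock-in LPS replicate 2 (limma adjusted p = 0.127). Atp5a1 was lower (log2 change -0.40, SE 0.044, limma adjusted p = 1.65e-08), a call lost with quantile normalization (limma adjusted p = 0.531). Atp5b (-0.20) and Atp5g3 (-0.16) were lower on the deposited scale, but their sign turned with plain CPM (0.020 and 0.065). The call of Atp5g3 was also lost without knock-in LPS replicate 1 and without wild-type LPS replicate 2 (limma adjusted p = 0.224 and 0.0969).

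Without LPS, no member differed between the genotypes in limma (0 of 82, with 0.00839% of all genes called). At an unadjusted p under 0.05, 27 of 82 members were higher in the knock-in and 0 lower, against 6.56% of all genes higher and 7.01% lower. At an adjusted p, edgeR and DESeq2 also called 0 members. The log2 differences ran from -0.08 to 0.33, and 71 of the 82 were positive. Their median was 0.11, against -0.0024 for all genes. It fell to 0.057 without untreated knock-in replicate 2 and to 0.087 without untreated wild-type replicate 2. It was 0.11 without untreated wild-type replicate 1 and 0.14 without untreated knock-in replicate 1. The median was thus positive in each of these fits, but its size depended on single libraries. Ndufb3, an accessory subunit of the membrane arm, had the smallest p and read 18.9 and 17.6 in wild type and 21.9 and 24.4 in knock-in (log2 change 0.33, SE 0.079, limma adjusted p = 0.122). Cox6a1 followed with 120.4 and 114 and 129 and 139 (log2 change 0.19, SE 0.053, limma adjusted p = 0.162), then Ndufa9 with 56.1 and 51.9 and 61.1 and 62.7 (log2 change 0.19, SE 0.058, limma adjusted p = 0.177). In these 3 genes the knock-in libraries were above the wild-type ones, without overlap. They were picked for the smallest p, so the lack of overlap largely follows from the choice and adds no support. The fixed members Ndufs1, Ndufv1, Ndufa4, Uqcrc1, Uqcrfs1, Cox4i1, Cox5a, Cox7a2l, Atp5a1 and Atp5b lay between 0.023 and 0.15 and none passed. Leaving out untreated wild-type replicate 1 gave 9 members called higher and 0 lower, while over all genes 2.19% were then called higher and 1.85% lower. These libraries all read as female, so that comparison does not carry the sex difference.

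Several genes around the respiratory chain had larger log2 changes than any member. The lists of these genes were chosen by name. Their counts are to be read against the shares of all genes called, which were 26.8% higher and 30.7% lower with LPS in wild type and 28.5% and 28.3% in knock-in. With LPS in wild type, 0 of 8 further complex I assembly factors rose and 5 fell, and in the libraries labelled knock-in with LPS 6 rose and 0 fell against untreated knock-in. Leaving out 1 library gave 3 to 5 falls in wild type, with 3 without untreated wild-type replicate 1 or wild-type LPS replicate 1, and 4 to 6 rises in knock-in. Tmem186 showed the widest change among them, at 11.2 and 9.37 in untreated wild type, 4.22 and 4.02 in wild type with LPS, 10.2 and 9.47 in untreated knock-in and 13.0 and 13.3 in the libraries labelled knock-in with LPS (log2 change -1.14 in wild type and 0.38 in knock-in). Ecsit, which also has a part in Toll-like receptor signalling, did not pass in wild type (-0.18) and rose in knock-in (0.74). Of 21 complex IV assembly factors, 4 rose and 10 fell in wild type, and 10 rose and 1 fell in knock-in. The rises in wild type were 2 without either untreated wild-type library or without wild-type LPS replicate 2. Coa4 had log2 changes of -0.72 and 0.71, and Taco1, the translational activator of mitochondrial subunit I, had -1.18 and 0.30, the second lost without any of untreated knock-in replicate 2 and knock-in LPS replicates 1 and 2 (limma adjusted p up to 0.231). Of the 2 complex II assembly factors both fell in wild type and 1 rose in knock-in, and of the 3 of complex III 1 fell in wild type, and in knock-in 2 rose and 1 fell. Among the 5 assembly and regulation genes of the ATP synthase 1 rose and 1 fell in wild type and 2 rose and 1 fell in knock-in, where Atpif1, the inhibitor of the enzyme, changed by -0.54 (wild type 0.032, not called). The counts in the lists of complex III and the ATP synthase are of few genes and turned on single libraries. Leaving out 1 library gave 0 to 1 rises and 1 to 2 falls in wild type in each of them. In knock-in it gave 1 to 2 rises and 0 to 1 falls for complex III and 0 to 3 rises and 1 fall for the ATP synthase.

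Mitochondrial ribosomal proteins translate the subunits encoded in mitochondrial DNA. Of 76 tested, 6 rose and 25 fell with LPS in wild type, with a median log2 change of -0.072, and 50 rose and 1 fell in knock-in, with a median of 0.25. The 25 falls in wild type are a share near that of all genes (30.7% lower), whereas 28.5% of all genes rose in knock-in. The wild-type rises were 3 without untreated wild-type replicate 2 and 2 without wild-type LPS replicate 2, the wild-type falls 16 without wild-type LPS replicate 1, and the knock-in rises 33 without knock-in LPS replicate 1. With plain CPM the wild-type counts were 2 and 61 and the knock-in counts 41 and 2. Mrpl39 rose in wild type (0.81), whereas Mrpl49 fell (-0.70). Regulators of mitochondrial gene expression were mixed in wild type, with 4 of 16 higher and 5 lower, and in knock-in 9 were higher and 3 lower (1 lower without untreated knock-in replicate 1). Peo1, the mitochondrial DNA helicase Twinkle, changed by -1.75 in wild type and 0.61 in knock-in. Polrmt, the mitochondrial RNA polymerase, changed by -0.80 and 0.35, and Tfam, which packages and transcribes mitochondrial DNA, by -0.71 and 0.30. Gabpb1, a subunit of GABP, rose in wild type (1.18) and by 0.20 in knock-in, the latter lost without untreated knock-in replicate 2 or knock-in LPS replicate 1 (limma adjusted p = 0.314 and 0.242).

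**Figure D5:**
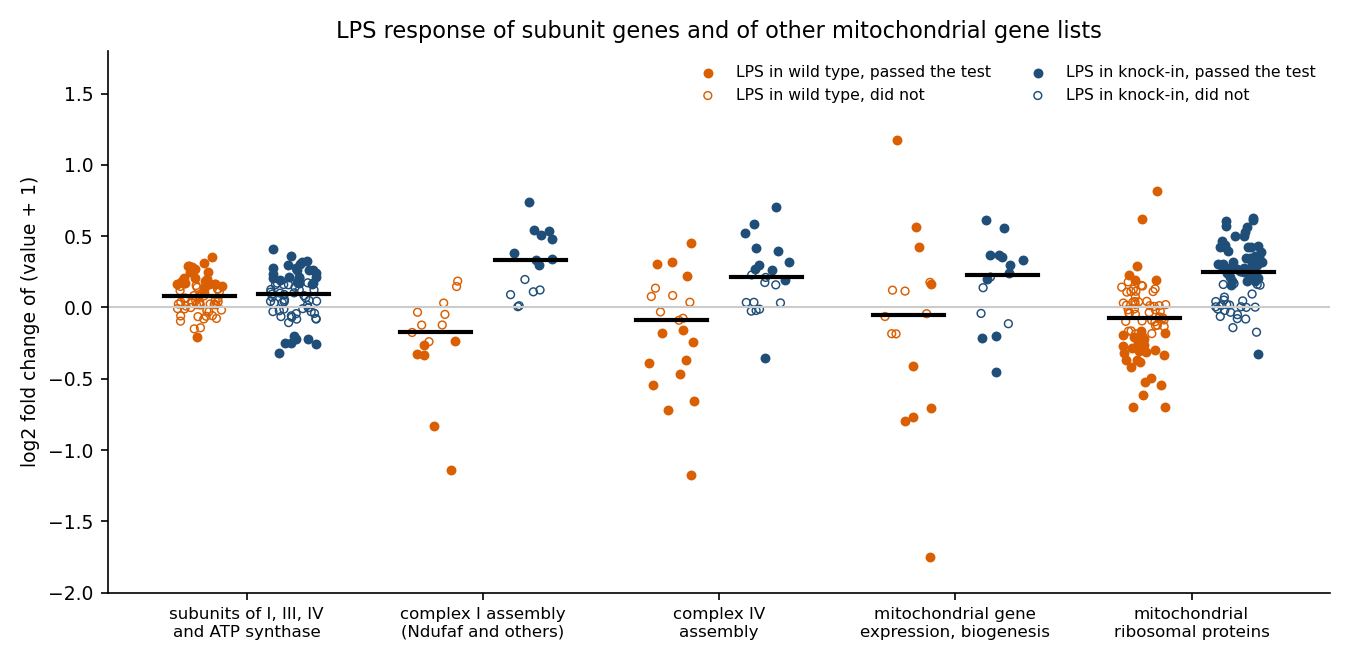
Log2 fold change of (value + 1) with LPS in wild type (orange) and in the libraries labelled knock-in with LPS (blue) for subunit genes and 4 groups of mitochondrial genes; filled points passed limma's test and black bars are medians. Subunit genes lie near 0 in both. On the deposited scale the medians of the other 4 groups are below 0 in wild type and above 0 in knock-in. In wild type those of the ribosomal proteins and the gene expression group are also near 0. Leaving out 1 library gives -0.087 to -0.053 and -0.072 to -0.034 for them, where all genes have -0.032 with all libraries. With quantile normalization the wild-type median of the gene expression group is 0.0061.

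The carriers between the complexes were read through complex II and cytochromes c and c1. Of these 6 genes, 3 rose and 0 fell in wild type and 4 rose and 0 fell in knock-in, where 26.8% and 28.5% of all genes rose. Without untreated wild-type replicate 2, 1 rose and 1 fell in wild type, and without untreated knock-in replicate 1 or knock-in LPS replicate 1, 2 rose in knock-in. Cycs, cytochrome c itself, read 68.8 and 74.0 in untreated wild type, 83.9 and 91.0 in wild type with LPS, 71.9 and 69.8 in untreated knock-in and 108 and 111 in the libraries labelled knock-in with LPS, with log2 changes of 0.29 and 0.62. The libraries labelled knock-in with LPS were highest. Cyc1, the cytochrome c1 subunit of complex III, changed by 0.26 and 0.48, and without untreated wild-type replicate 2 the limma adjusted p of the first was 0.173. With plain CPM the wild-type changes of Cycs and Cyc1 were -0.0029 and -0.031. Of 13 genes of coenzyme Q synthesis, 2 rose and 4 fell in wild type, the falls near the share of all genes (30.7% lower), and 5 rose and 1 fell in knock-in (3 rose without knock-in LPS replicate 2). Coq10b, a coenzyme Q binding protein, rose by 1.75 in wild type and 0.45 in knock-in. Of 13 genes of other electron entry and transport across the membranes, 4 rose and 3 fell in wild type, and 2 rose and 6 fell in knock-in. The wild-type falls were 1 without any single wild-type library, and the knock-in rises 0 to 1 without any single knock-in library. Gpd2, which feeds electrons from glycerol 3-phosphate into coenzyme Q, read 21.3 and 22.8 in untreated wild type, 45.1 and 46.4 in wild type with LPS, 21.5 and 18.9 in untreated knock-in and 19.9 and 20.4 in the libraries labelled knock-in with LPS (log2 change 1.02 in wild type and -0.00076, not called, in knock-in). Slc25a4, an ADP/ATP carrier, did not pass in wild type (0.089) and fell in knock-in (-0.80). Without LPS, 0 genes of every list were called between the genotypes in limma.

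In the comparison of knock-in with wild type under LPS, the lists differed in how many genes were higher in the libraries labelled knock-in with LPS, with 38.5% of all genes higher and 36.8% lower. All 8 further complex I assembly factors were higher, as were 16 of 21 complex IV assembly factors (2 lower), 61 of 76 mitochondrial ribosomal proteins (5 lower), 9 of 13 coenzyme Q genes (3 lower) and 5 of 6 genes of complex II and the cytochromes (0 lower). The 5 lower ribosomal proteins numbered 2 without knock-in LPS replicate 2 or wild-type LPS replicate 2 and 3 without knock-in LPS replicate 1. In the electron entry list 1 was higher and 8 were lower, but several of these falls depended on the run. With plain CPM Etfdh turned sign (0.052) and the calls of Etfa and Prodh were lost. With quantile normalization Ucp2 turned sign (0.14) and the call of Vdac2 was lost. Etfdh and Prodh also lost their calls without single libraries. The list medians were 0.78, 0.43, 0.40, 0.38, 0.29 and -0.23 in that order, and each kept its sign under all 4 scalings. Of the regulators of mitochondrial gene expression 8 of 16 were higher and 3 lower, with a median of 0.16. Both assembly factors of complex II, 2 of 3 of complex III (1 lower) and 2 of 5 assembly and regulation genes of the ATP synthase (1 lower) were higher. AA467197, a relative of Ndufa4 known to be induced in inflammation, read 1.88 and 1.62 in untreated wild type, 4.22 and 5.2 in wild type with LPS, 1.49 and 1.68 in untreated knock-in and 3.95 and 4.82 in the libraries labelled knock-in with LPS. Both LPS groups were above both untreated groups, with a log2 change of 1.05 in wild type and 1.05 in knock-in.

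Some members share exon sequence with a neighbour. In the GENCODE vM21 annotation, 86 of 88 members were found, 31 shared exon sequence with another gene, and in 28 the other gene was on the opposite strand. Among the members named here these included Atp5a1 (Haus1), Ndufs1 (Eef1b2), Ndufb11 (Rbm10), Cox4i1 (Emc8), Cox6c (Vps13b), Atp5d (Cbarp), Ndufa2 (Tmco6) and Cox6a2 (Itgad). Uqcrb (Gm10767), Ndufb6 (Smim27), Ndufa9 (1700018A23Rik) and Cox5a (Gm26631) were others, and all of these pairs were on opposite strands. Whether counting used the strand is not given in the sources used here, so reads of such pairs cannot be told apart. RefSeq lists a pseudogene under the same symbol for 10 members, and reads of near-identical copies are likewise uncertain.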

How the data were processed

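RNA-seq of 8 libraries was used, grouped by their labels. The labels do not tell whether replicates were separate cultures or animals, and the p-values then measure the spread between these libraries alone, which may be technical. The authors deposited 1 table of 23366 genes whose values are a signal, read counts divided by a scaled library size in the form of TMM-scaled CPM, as worked out from the values. Per the submitters' processing notes, the tools were TopHat2 2.0.9, bedtools and edgeR, and the genome was mm9. How reads were counted, whether by strand and against which annotation, is not given in the sources used here. Whole reads were recovered from the deposited signal for 100% of values above 0 within a tolerance of 0.001.

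Normalized values call for a test on a log scale. A 2-sided moderated test was run with limma 3.58.1 (R 4.3.3) and a variance trend on log2(value + 1), over the 11919 genes that reached 1 in 2 or more libraries. All 8 libraries entered 1 model of 4 group means, with 4 residual and 19.1 prior degrees of freedom. Calls were made at a Benjamini-Hochberg adjusted p under 0.05 over all genes tested, within each of 5 comparisons. Fold changes on this scale understate those of low genes. The model was also run on simulated data in which few genes changed, balanced up and down. That setting differs from these data, so the run cannot speak to the scaling of the libraries. On the recovered reads, edgeR 4.0.16 called 3528 genes higher and 3314 lower with LPS in wild type, and DESeq2 1.42.0 3350 and 3135. Other alternatives changed the pseudocount, the filter, the scaling, the variance trend, the libraries in the fit and a replicate block. Members and lists were chosen with earlier results of these data known. Members were named when called with non-overlapping libraries and a higher group mean of at least 5 (for the interaction, when called with such a mean), up to 3 in each direction and complex. A further 10 were named in every comparison, untested members by their highest value, and the 3 with the smallest p where fewer than 3 were called. From each other list up to 4 genes could be named, the largest changes first. Promoters came from RefSeq (GRCm38.p6) and gene overlaps from GENCODE vM21, other builds than mm9.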

Additional observations from a re-analysis of the deposited data

Results flagged for a closer look

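For 17 members that the naming rule picked, the LPS response differed between the genotypes in the interaction test itself (limma adjusted p under 0.05), given here as knock-in minus wild type on the log2 scale. In complex I it was positive for the assembly factors Ndufaf6 (0.72), Ndufaf5 (0.63) and Ndufaf4 (0.46). It was negative there for Ndufs1 (-0.42), Ndufb11 (-0.32) and Ndufa4 (-0.38), the last placed there by symbol only. In complex III it was positive for Uqcr10 (0.26) and negative for Uqcrfs1 (-0.58) and Uqcrh (-0.49). In complex IV it was negative for Cox4i1 (-0.29), Cox6c (-0.25) and Cox8a (-0.20). Among members with an ATP synthase symbol it was positive for Atp5sl (0.66), now listed as a complex I assembly factor, and Atp5h (0.30). In the same group it was negative for Atp5a1 (-0.49), Atp5g3 (-0.30) and Atp5b (-0.29). With 63.7% of all genes called in that test, such a difference is common in these libraries. Several negative calls depended on the run. Ndufs1, Ndufa4, Ndufb11 and Atp5a1 each lost theirs in 1 alternative run, and Atp5g3 in 2. Cox4i1 and Atp5b each lost the call in 1 run and turned sign in 1. The calls of Ndufaf4, Uqcr10, Cox6c and Cox8a were each lost without a single library, with limma adjusted p up to 0.114 (without wild-type LPS replicate 2), 0.216 (without untreated knock-in replicate 1), 0.0708 (without untreated wild-type replicate 2) and 0.172 (without untreated knock-in replicate 2). All of these differences rest on the libraries labelled knock-in with LPS, which read as male while the other 6 libraries read as female and in which Tnf and Il1b were far below wild type with LPS, so that the label, sex and this low level cannot be told apart.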

How the results depend on the processing

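The number of members called depended most on how the libraries were scaled. With LPS in wild type, quantile normalization gave 6 members higher and 22 lower (median log2 change -0.051) and plain CPM 0 and 58 (median -0.22), against 25 and 3 on the deposited scale. In the genotype comparison with LPS the counts were 55 and 6 (median 0.23) and 66 and 4 (median 0.32), against 36 and 13. For the interaction they were 26 and 5 (median 0.13) and 46 and 3 (median 0.26), against 17 and 13. The other alternatives kept these counts within 1.5 times: pseudocount 0.1, no filter, a filter at 5, median-of-ratios scaling, edgeR, DESeq2, a robust variance trend, and only the groups compared. With LPS in knock-in they were also within 1.5 times under every scaling. Without the libraries labelled knock-in with LPS, 23 members rose and 3 fell in wild type, and 0 differed between untreated genotypes.

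The sign of single genes turned under these scalings alone. In wild type with LPS it turned with plain CPM for Ndufa2 (-0.0083), Ndufb3 (-0.030), Ndufb6 (-0.069), Uqcrh (-0.020), Uqcrq (-0.12), Cox4i1 (-0.085), Cox8a (-0.11), Cox6a1 (-0.11), Atp5a1 (-0.00092), Atp5g3 (-0.0037), Uqcrc1 (-0.14), Cox5a (-0.12), Cox7a2l (-0.17) and Atp5b (-0.045), and with quantile normalization for Cox4i1 (-0.25), Cox8a (-0.098), Cox6a1 (-0.097), Atp5a1 (-0.12), Uqcrc1 (-0.13), Cox5a (-0.12), Cox7a2l (-0.34) and Atp5b (-0.18). In the genotype comparison with LPS it turned with quantile normalization for Cox4i1 (0.23), Atp5b (0.21) and Atp5g3 (0.052) and with plain CPM for Cox4i1 (0.086), Atp5b (0.020) and Atp5g3 (0.065). In the interaction it turned with quantile normalization for Cox4i1 (0.092), Cox8a (0.026) and Atp5b (0.14) and with plain CPM for Cox8a (0.050).

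Leaving out 1 library at a time gave 10 to 25 members higher and 1 to 3 lower with LPS in wild type (median 0.037 to 0.12), 15 to 29 higher and 5 to 8 lower with LPS in knock-in (median 0.065 to 0.15), and 0 to 9 higher between untreated genotypes (median 0.057 to 0.14). It gave 25 to 37 higher and 9 to 13 lower between genotypes with LPS (median 0.064 to 0.15), and 9 to 17 positive and 10 to 16 negative interactions (median -0.018 to 0.056). A group then held 1 library, which is assumed to vary like the other groups. Same-numbered libraries did not visibly deviate together (correlations of -0.084 to 0.089 over the 6 pairs of groups). These correlations cannot tell whether same-numbered libraries shared an animal or culture, so pairing stays unknown. A replicate block gave 25 higher and 3 lower in wild type, 26 and 7 in knock-in, 36 and 13 between genotypes with LPS and 19 and 13 interactions, and ended the calls of Ndufb6 in wild type (limma adjusted p = 0.0594) and Atp5e in knock-in (0.0532). With 2 libraries a group and changes mostly under 0.3 on the log2 scale, calls rest on the spread between libraries, and the lowest tested member had 39 reads in every library or more.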
